A study of Mus musculus with 6 samples.

Results

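The genes described here are the Wnt ligands, their receptors, their secreted modulators and the first cytoplasmic steps of the pathway, measured in ribosome-bound mRNA of diencephalic and cortical grey matter astrocytes of the adult mouse. Members were taken by gene symbol: Wnt and Frizzled genes, Lrp5 and Lrp6, Sfrp1 to Sfrp5, the Dickkopf genes and Dkkl1, Wif1, Notum, Porcn, the R-spondin genes with Lgr4 to Lgr6, Znrf3 and Rnf43, and Dvl1 to Dvl3, Axin1, Axin2, Apc, Gsk3b, Ctnnb1, Nkd1 and Nkd2. This gave 62 of the 23955 genes in the files: 19 ligands, 1 ligand-processing enzyme, 12 receptors, 11 secreted antagonists, 9 genes of the R-spondin axis and 10 cytoplasmic genes.

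Wnt proteins are lipid-modified secreted signals that bind a Frizzled receptor together with the co-receptor LRP5 or LRP6. In the β-catenin branch this stops a destruction complex built on Axin, APC and GSK3β from degrading β-catenin, which then works with TCF/LEF proteins at target genes, Axin2 and Nkd1 among them. Secreted proteins tune the signal outside the cell: SFRP and WIF1 bind Wnts, DKK1 blocks LRP5 and LRP6, NOTUM removes the Wnt lipid, and R-spondins acting through LGR4 to LGR6 protect Frizzled receptors from the membrane ubiquitin ligases ZNRF3 and RNF43. In the developing brain Wnt signals pattern the dorsal midline and the thalamus, and in the adult astrocytes are among the cells that make Wnts and respond to them.

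The series has 3 libraries from diencephalon, taken without the tissue next to the third ventricle, and 3 from grey matter of the cerebral cortex, cleared of meninges and white matter. All mice were 3 months old, on a C57BL/6 background and of both sexes, with the genotype Slc1a3 +/- GFP+ Rpl22HA fl/fl, from a cross that carried the recombinase allele Slc1a3tm1(cre/ERT2)Mgoe, the conditional ribosome tag of line B6N.129-Rpl22 tm1.1Psam/J and the reporter transgene Tg(CAG-cat,-EGFP)1Rbns/KrnzJ from an FVB.B6 stock. At 9 weeks they received tamoxifen by gavage, 3 doses at intervals of 48 hours, each of 0.4 mg/g by weight, which activates the recombinase and switches the ribosomal protein Rpl22 to a haemagglutinin-tagged form. Both regions thus share the Cre insertion, the reporter and the drug, each library pools 3 mice, and tagging follows the activity of the Slc1a3 locus, which encodes an astrocyte glutamate transporter. Unpurified tissue RNA was not analysed here.

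Expected counts summed to 1840344 to 2078793 in the diencephalic libraries and to 1733145 to 2334237 in the cortical ones, so 3 counts in a library correspond to 1.31 to 1.86 CPM (counts scaled to library size, with TMM factors). The exact intervals and floors given for genes below the count filter cover counting error only, while the intervals of tested genes come from edgeR's SE and include the spread between libraries. Cortical grey matter replicate 3 stood apart, its counts giving a chi-square of 7.47 and 6.48 for each degree of freedom against its fellow cortical libraries, where that pair gave 2.71 and the diencephalic pairs 2.94 to 3.64. Every marker of the cell type lists named here had counts in at least 1 library. Summed astrocyte markers lay at 15603 to 18296 CPM in diencephalon and 25790 to 32480 CPM in cortical grey matter, with 7 of 12 lower. Markers of other cells moved with region too. Cortical excitatory neuron markers summed to 1353 to 1730 CPM in diencephalon and 5664 to 6694 CPM in cortex, with 12 of 13 lower. Meningeal and fibroblast markers summed to 847 to 1281 CPM in diencephalon and 4671 to 8503 CPM in cortex, with 11 of 12 lower. Subcortical neuron markers summed to 555 to 668 CPM in diencephalon and 51.1 to 59.0 CPM in cortex, with all 8 tested of 12 higher. Choroid plexus markers summed to 285 to 392 CPM in diencephalon and 18.6 to 49.5 CPM in cortex, with 5 of 6 tested higher. Markers low in 1 region can pass the count filter through the other region alone, which was not checked for these lists. Oligodendrocyte markers summed to 1734 to 2317 CPM in diencephalon and 794 to 1018 CPM in cortex, with 7 of 8 tested higher. Mural markers summed to 80.0 to 102 CPM in diencephalon and 178 to 276 CPM in cortex, with 3 of 4 tested lower. Endothelial markers summed to 39.5 to 47.7 CPM in diencephalon and 61.5 to 83.6 CPM in cortex, with 1 of 4 tested lower. Oligodendrocyte progenitor markers summed to 172 to 195 CPM in diencephalon and 224 to 257 CPM in cortex, with 3 of 6 lower. Over all genes 14.9% were called higher and 14.8% lower. Some sums changed without their largest gene. The meningeal sum was 5.99-fold higher in cortex and 3.13-fold without Ptgds. The cortical excitatory sum was 3.96-fold higher in cortex and 1.98-fold without Camk2a. The mural sum was 2.64-fold higher in cortex and 1.82-fold without Vtn. The endothelial sum was 1.64-fold higher in cortex and 1.04-fold without Cdh5. The oligodendrocyte progenitor sum was 1.32-fold higher in cortex and 1.77-fold without Olig1. The other sums given here changed little without their largest gene. The part of these cells in the results below was not tested, and in bulk RNA fewer cells of a type and less RNA per cell cannot be told apart.

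In diencephalon, several Frizzled and LGR receptor genes were higher and the most abundant secreted antagonist, Dkk3, was lower, together with Sfrp1 and 2 R-spondin ligands. Of the 62 members 36 passed the count filter, and 8 of these were higher and 5 lower in diencephalon (adjusted p under 0.05 by Benjamini-Hochberg over all 10568 genes tested, from edgeR's quasi-likelihood fit). Over all genes 14.9% were called higher and 14.8% lower. The higher members were the receptors Fzd1, Fzd5, Fzd8 and Fzd10, the antagonist Sfrp5, the R-spondin receptors Lgr4 and Lgr6, and Axin1. The lower members were the antagonists Dkk3 and Sfrp1, the ligands Rspo1 and Rspo2, and Apc. Fzd10 and Sfrp5 passed the filter through the diencephalic libraries alone and Rspo2 through the cortical ones alone, so these 3 could hardly have passed without differing. All diencephalic libraries lay above all cortical ones for 11 of the 36 and below them for 5, where 21.8% and 20.8% of all genes did so (42.6% in either direction). The median log2 difference was 0.06 over the tested members and 0.01 over all genes, and the counts of called members, set against the background, are no result about the pathway as a whole.

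**Figure D1:**
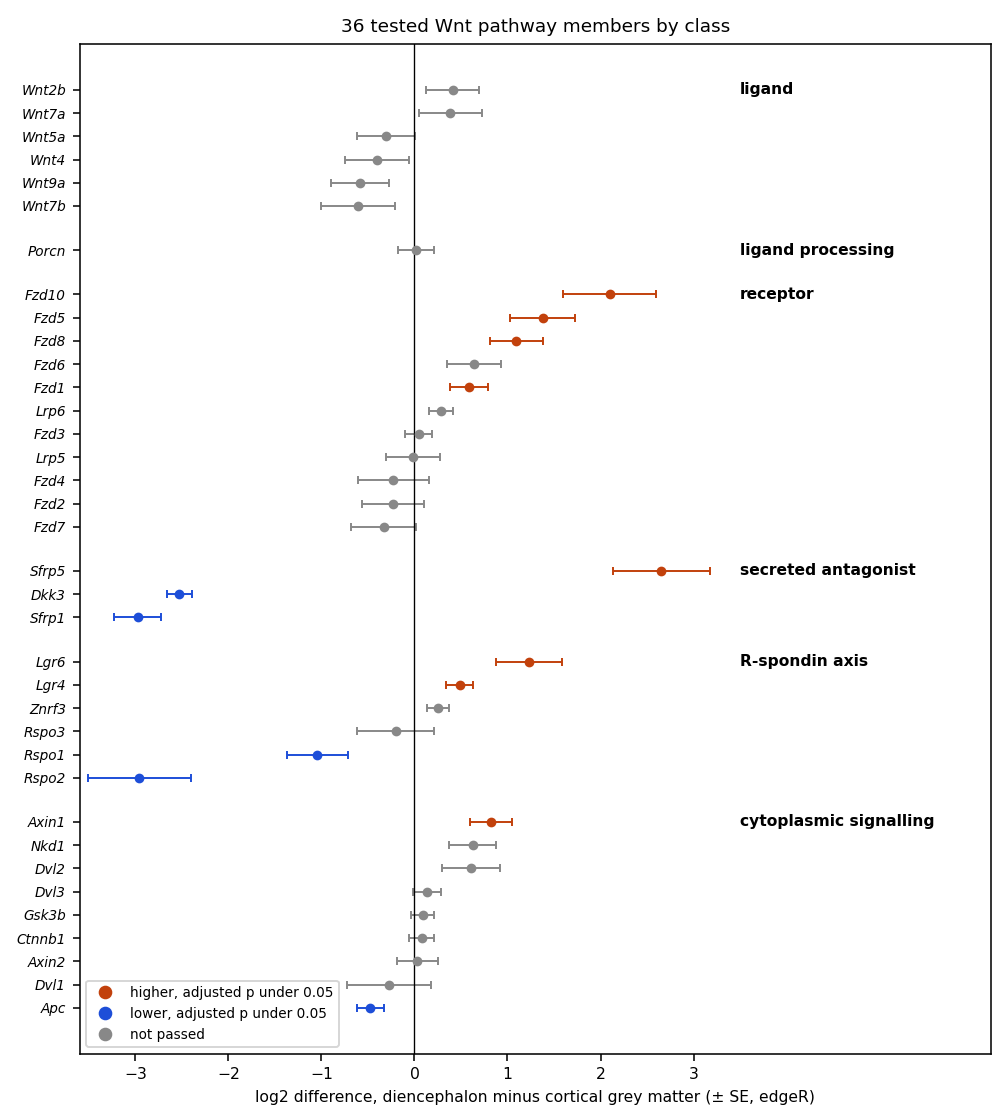
Log2 difference between diencephalon and cortical grey matter (x axis, diencephalon minus cortex, ± SE) for the 36 tested members, grouped by class. The 6 tested ligands lie on both sides of 0 without passing, the 4 called receptors all lie to the right, and the secreted antagonists and R-spondins hold the differences beyond 2.5 in size.

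Of the 19 Wnt ligand genes 6 could be tested, and 0 passed by edgeR, 0 by DESeq2 and 0 at an unadjusted edgeR p under 0.05, the smallest being 0.0717 for Wnt9a. Wnt9a, the ligand gene with the highest mean level over both regions, had 9.36, 12.1 and 16.7 CPM in the diencephalic libraries and 14.4, 16.5 and 27.3 CPM in the cortical ones (log2 difference -0.59 ± 0.31 SE, edgeR adjusted p = 0.165). Its libraries overlapped, and cortical grey matter replicate 3 was the highest of all. Wnt2b had 16.4, 13.2 and 23.0 CPM in diencephalon and 12.7, 13.8 and 13.0 CPM in cortex (log2 difference 0.41 ± 0.29, edgeR adjusted p = 0.306), with a wider spread in diencephalon and overlapping libraries. Wnt7a, which together with Wnt7b acts on the vessels of the developing brain, had 14.5, 10.02 and 14.6 CPM in diencephalon and 13.1, 10.6 and 5.59 CPM in cortex (edgeR adjusted p = 0.430). The intervals leave room for sizeable differences: the 95% interval of the ratio of diencephalon to cortex ran from 0.425 to 1.04 for Wnt9a, from 0.879 to 2.01 for Wnt2b and from 0.8001 to 2.13 for Wnt7a. Wnt4, Wnt5a and Wnt7b, the other tested ligands, had log2 differences of -0.40, -0.31 and -0.61.

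Per transcript length the tested ligands sat close together. Their mean levels ran from 8.60 TPM (Wnt7b) to 18.8 TPM (Wnt2b) in diencephalon and from 10.3 TPM (Wnt7a) to 19.6 TPM (Wnt9a) in cortex. All 19 Wnt genes together came to 95.1 ± 13.8 TPM in diencephalon and 86.0 ± 1.92 TPM in cortex (mean ± SD over 3 libraries each). On the TPM scale all genes had a median 0.22 higher in diencephalon (log2). In CPM the same sums were 87.2 ± 12.2 in diencephalon and 87.4 ± 3.79 in cortex. The 6 tested genes made up 84.2% ± 2.39 of that sum in diencephalon and 91.1% ± 1.38 in cortex. Porcn, the acyltransferase that attaches the lipid to Wnts, had 46.3, 34.8 and 41.3 CPM in diencephalon and 38.4, 46.9 and 36.02 CPM in cortex, a difference of 0.015 ± 0.19 on the log2 scale (edgeR adjusted p = 0.966, 95% interval of the ratio 0.764 to 1.34).

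**Figure D2:**
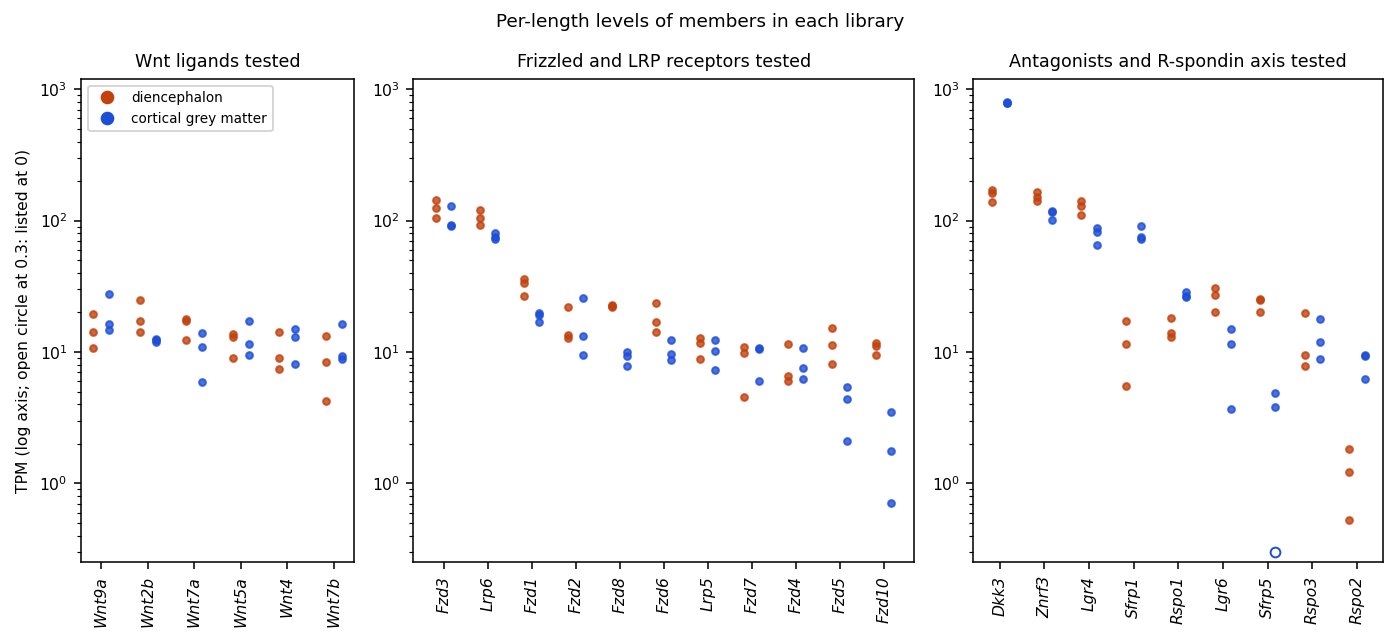
Level per transcript length (TPM, log axis) of tested ligands, receptors, antagonists and R-spondin axis genes in each of the 6 libraries, ordered within a panel by mean level; an open circle marks a library listed at 0. Fzd3 and Lrp6 stand above the other receptors in both regions, and Dkk3 leads the antagonists in both.

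Some ligands below the filter differed on few counts. Wnt9b and Wnt3, singled out after their values were seen, had counts almost only in diencephalon. Wnt9b had 24, 8 and 12 counts in diencephalic replicates 1 to 3 and 1, 0 and 1 in the cortical ones, a ratio of 21.4 per unit of library size (95% exact counting interval 5.58 to 182). Wnt3, which signals through β-catenin, had 6, 8 and 10 counts in diencephalon and 1, 0 and 0 in cortex, a ratio of 23.3 (3.804 to 959). No diencephalic library was as low as any cortical one for either gene. Together they made up 11.7% ± 1.05 of the summed Wnt TPM in diencephalon and 0.494% ± 0.471 in cortex. Wnt8b, a ligand gene of the dorsal forebrain midline in the embryo, had 3, 5 and 1 counts in diencephalon and none in cortex, at least 2.92-fold higher when 3 counts over the cortical libraries are taken as the floor. Wnt10a went the other way, with no count in diencephalon and 3, 4 and 1 counts in cortex, at least 2.74-fold lower in diencephalon against the same floor there. Wnt6 had 2 counts in diencephalon and 7 in cortex (ratio of cortex to diencephalon 3.60, interval 0.686 to 35.5). The other 8 Wnt genes below the filter (Wnt1, Wnt2, Wnt3a, Wnt5b, Wnt8a, Wnt10b, Wnt11 and Wnt16) had at most 3 counts in either region, so a difference was not detectable at this depth. Fitted with no count filter, where 10.6% of all genes were called higher and 10.6% lower, Wnt9b, Wnt3 and Wnt8b passed as higher (edgeR adjusted p = 2.9e-06, 0.00119 and 0.0424), while Wnt10a did not pass (0.0538).

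In the GENCODE annotation of GRCm38, which is a later build than the submitters' mm9, Wnt9b and Wnt3 are neighbouring protein-coding genes on chromosome 11 that point away from each other. They are 1 of 4 neighbouring pairs among the members. In the pair Wnt6 and Wnt10a on chromosome 1, both genes had more counts in cortex (2 in diencephalon and 7 in cortex for Wnt6, 0 and 8 for Wnt10a). In the pair Wnt3a and Wnt9a the totals went opposite ways (2 in diencephalon and 0 in cortex for Wnt3a, 75 and 108 for Wnt9a), and in the pair Wnt10b and Wnt1 neither had more than 2 counts. The 250 bases before the start of Wnt9b and Wnt3 are shown because these neighbours shared a pattern; they come from RefSeq on GRCm38.p6, at chr11:103749822-103750071 on the minus strand for Wnt9b and chr11:103773925-103774174 on the plus strand for Wnt3, printed 5′ to 3′ in lower case.
Wnt9b: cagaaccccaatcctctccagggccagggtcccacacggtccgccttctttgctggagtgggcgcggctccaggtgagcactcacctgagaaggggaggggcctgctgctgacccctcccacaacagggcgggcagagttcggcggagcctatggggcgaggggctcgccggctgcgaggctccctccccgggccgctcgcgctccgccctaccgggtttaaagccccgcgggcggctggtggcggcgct
Wnt3: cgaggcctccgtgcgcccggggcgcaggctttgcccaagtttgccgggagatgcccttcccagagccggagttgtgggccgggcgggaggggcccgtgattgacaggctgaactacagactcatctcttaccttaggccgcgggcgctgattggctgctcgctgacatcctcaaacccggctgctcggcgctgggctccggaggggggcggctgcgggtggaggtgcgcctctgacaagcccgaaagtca
They held 72% and 68% G and C, above the upper quartile of 61.2% over all 32851 promoters in the table. Neither held CTTTGA, the core bound by TCF/LEF proteins, on either strand. That hexamer was in 13.8% of all promoters of this length and in 5 of 45 promoters of members (40 of the 62 members matched the table).

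**Figure D3:**
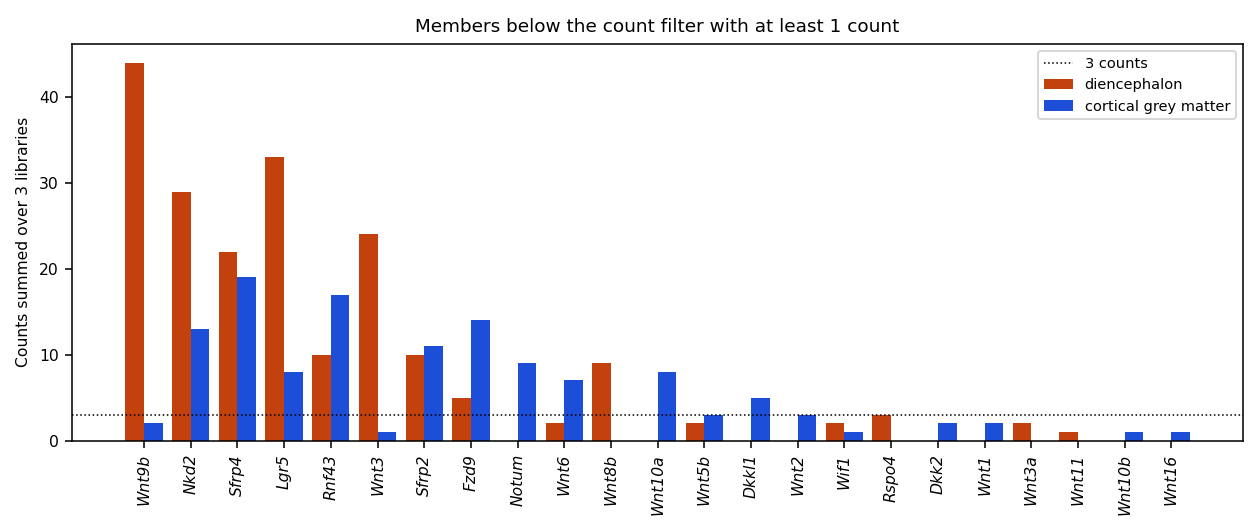
Counts summed over the 3 libraries of each region for the 23 members below the count filter that had at least 1 count (bars, linear axis; dotted line, 3 counts). Wnt9b, Lgr5, Nkd2 and Wnt3 have the tallest diencephalic bars, each above its cortical bar, and Rnf43, Fzd9, Notum and Wnt10a have taller cortical ones.

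Receptors had the most members higher in diencephalon and were also the class with the most members tested. Of 12 receptor genes 11 were tested, 4 were higher and 0 lower by edgeR (14.9% and 14.8% of all genes), with 0 lower by DESeq2 or at an unadjusted edgeR p under 0.05. Of these 4, Fzd10 passed the count filter through the diencephalic libraries alone, so it could hardly have passed without differing. The Fzd1 call depended on the setting, as given below. Counts over 11 genes are too small to set apart from the shares over all genes. Fzd10 had 7.49, 8.44 and 8.88 CPM in the diencephalic libraries and 3.05, 1.597 and 0.621 CPM in the cortical ones (log2 difference 2.10 ± 0.50, edgeR adjusted p = 0.00279). All 3 diencephalic libraries lay above all cortical ones, where the gene had 1 to 7 counts. Fzd5, a receptor gene of the embryonic eye field and hypothalamus, had 28.1, 14.8 and 20.4 CPM in diencephalon and 4.36, 9.58 and 11.2 CPM in cortex (2.60-fold higher, edgeR adjusted p = 0.00416). It passed in 14 of the 15 alternatives that tested it, the exception being log2(TPM + 1) with no TPM filter (limma adjusted p = 0.0530). The gene model Gm38058 shares 1233 exon bases with it on the opposite strand in the GRCm38 annotation. As no strand setting is stated, reads from those bases cannot be told apart. Fzd8 had 19.6, 19.5 and 18.8 CPM in diencephalon and 9.16, 7.99 and 9.94 CPM in cortex (2.14-fold higher, edgeR adjusted p = 0.00531), with little spread in either region, and passed under every alternative. Subcortical neuron, choroid plexus and oligodendrocyte markers were higher in the same libraries, and their part in these calls was not tested.

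Fzd1 had 31.3, 38.5 and 41.3 CPM in diencephalon and 24.9, 22.9 and 26.1 CPM in cortex, 1.502-fold higher (edgeR adjusted p = 0.0375), and the libraries did not overlap. This call rested on the setting: it was lost when diencephalon replicate 2 or 3 was left out (0.109 and 0.150) or cortical grey matter replicate 1 or 2 (0.0888 and 0.123), with no count filter (0.0532), with DESeq2 (0.0945), with the replicate number as a block (0.0518) and with the length trend removed (0.0791), and its adjusted p ranged from 0.0295 to 0.150. Its promoter is shown because it was the only 1 of the 7 called members in the table that held the TCF/LEF core, with the match in capitals (RefSeq, GRCm38.p6, chr5:4758217-4758466, minus strand, 5′ to 3′, 250 bases before the start).
Fzd1: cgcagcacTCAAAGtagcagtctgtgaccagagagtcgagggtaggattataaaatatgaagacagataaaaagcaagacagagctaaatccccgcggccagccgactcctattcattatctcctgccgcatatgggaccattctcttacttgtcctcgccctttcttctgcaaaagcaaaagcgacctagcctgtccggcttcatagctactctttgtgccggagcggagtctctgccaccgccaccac
The TCF/LEF core was in 13.8% of all promoters of this length, so 1 of 7 is near that background. A match to 6 letters is a description of the sequence and not a bound site.

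Fzd3, a receptor of axon guidance and tissue polarity, was the most abundant Frizzled in both regions. It stood at 125 ± 18.7 TPM in diencephalon and 105 ± 22.0 TPM in cortex (SD, n = 3 each) and made up 49.1% ± 6.34 of the summed Frizzled TPM in diencephalon and 56.2% ± 8.27 in cortex. Its counts came to 369.6, 431 and 488 CPM in diencephalon and 358, 377 and 512 CPM in cortex, which overlapped (log2 difference 0.048 ± 0.15, edgeR adjusted p = 0.836, 95% interval of the ratio 0.839 to 1.27). Without Fzd3 the other Frizzleds summed to 145, 123 and 119 TPM in diencephalon and 96.7, 76.0 and 70.1 TPM in cortex, though on this scale all genes had a median 0.22 higher in diencephalon (log2). The co-receptor Lrp6 had 269.9, 234 and 304 CPM in diencephalon and 214, 215 and 234 CPM in cortex. Its libraries did not overlap, and it did not pass (log2 difference 0.29 ± 0.13, edgeR adjusted p = 0.0967). It passed without cortical grey matter replicate 3 (0.0467) and with filtered TPM values (0.0416 and 0.0431 by limma), and its adjusted p ran from 0.0416 to 0.378 over the alternatives. With log2(TPM + 1), 14.8% of all genes were called higher and 6.7% lower. Lrp5 stood at 11.1 ± 2.04 TPM in diencephalon and 9.95 ± 2.53 TPM in cortex, well below Lrp6 in both. Fzd2 had 21.1, 12.7 and 12.02 CPM in diencephalon and 27.9, 10.6 and 14.3 CPM in cortex (edgeR adjusted p = 0.652), with replicate 1 the highest in each region. Fzd4, Fzd6 and Fzd7 had log2 differences of -0.23, 0.64 and -0.33, and Fzd9, below the filter, had 5 counts in diencephalon and 14 in cortex.

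**Figure D4:**
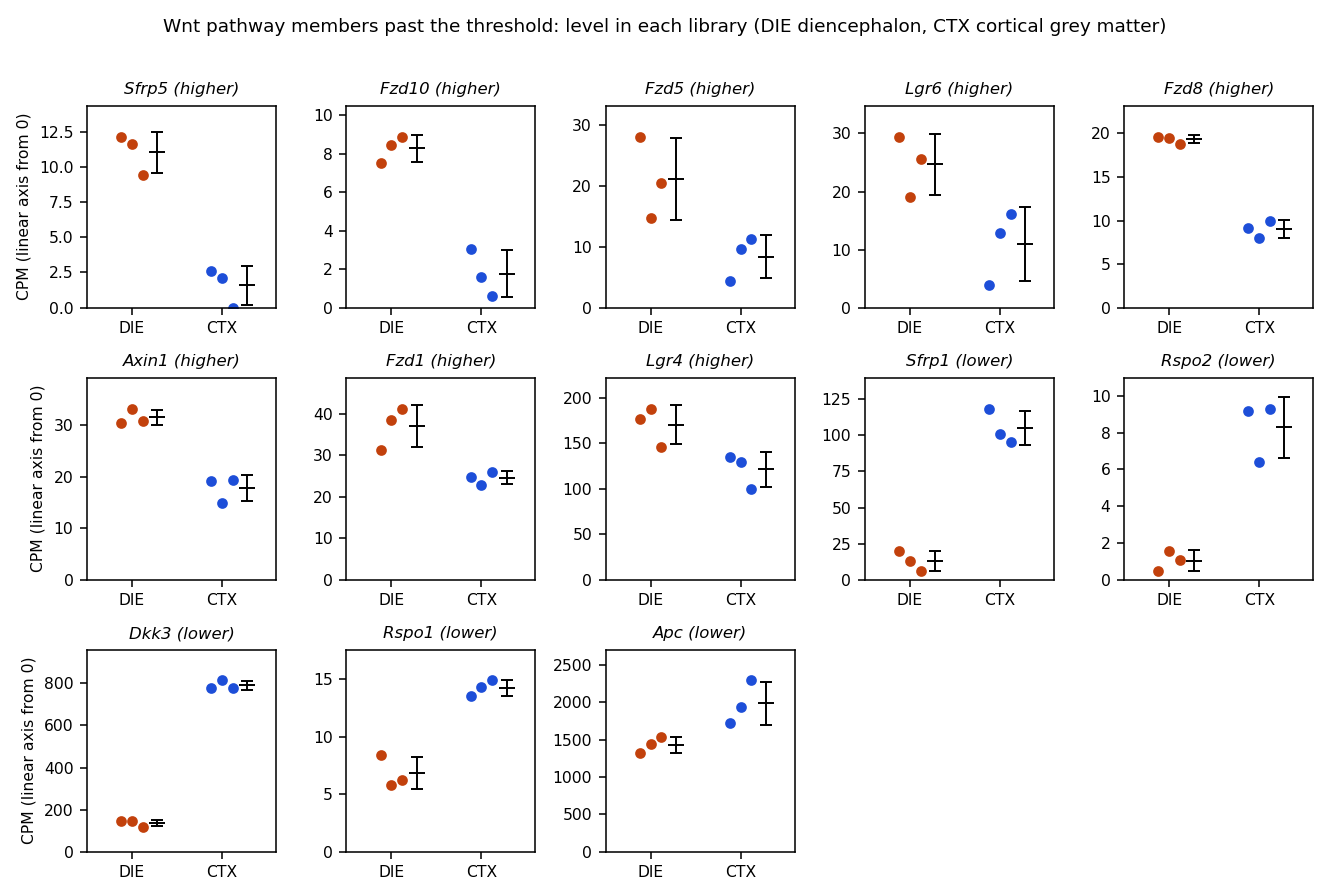
Level in each library (points, CPM on linear axes from 0) with the mean ± SD of 3 libraries (black) for the 8 higher and 5 lower members. No panel has overlapping regions; for Dkk3 the lowest cortical library, at 778 CPM, lies above the highest diencephalic one, at 148 CPM.

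Among secreted antagonists, Dkk3 and Sfrp1 were lower and Sfrp5 was higher in diencephalon. Of 11 genes 3 were tested and all 3 passed, 1 higher and 2 lower, in a comparison where 29.6% of all genes passed. The higher one, Sfrp5, passed the count filter through the diencephalic libraries alone, so it could hardly have passed without differing. With 3 genes tested, the count is too small to set apart from that background. Dkk3, a divergent Dickkopf whose place in Wnt signalling is unsettled, had 144, 148 and 119 CPM in the diencephalic libraries and 780.1, 814 and 778 CPM in the cortical ones (log2 difference -2.53 ± 0.13, edgeR adjusted p = 5.72e-12). The cortical libraries were within a narrow band, far above every diencephalic one. Sfrp1, which binds Wnts and marks radial glia in the embryonic cortex, had 20.1, 13.2 and 6.27 CPM in diencephalon and 119, 101 and 95.7 CPM in cortex (log2 difference -2.97 ± 0.25, edgeR adjusted p = 2.54e-08). Every diencephalic library lay far below every cortical one, and replicate 1 was the highest in each region. Its relative Sfrp5 showed the reverse, with 12.2, 11.6 and 9.41 CPM in diencephalon and 2.62, 2.13 and 0 CPM in cortex, where 1 library had no count (log2 difference 2.65 ± 0.52, edgeR adjusted p = 0.000479). With log2(TPM + 0.1) Sfrp5 did not pass (0.0597 by limma, the highest adjusted p over its alternatives, which began at 4.98e-06). Astrocyte, cortical excitatory neuron, meningeal, mural, endothelial and oligodendrocyte progenitor marker sums were lower in diencephalon together with Dkk3 and Sfrp1. Subcortical neuron and choroid plexus markers were higher together with Sfrp5. The part of all these cells was not tested.

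Dkk3 dominated its class per transcript length. It stood at 157 ± 17.04 TPM in diencephalon and 788 ± 5.44 TPM in cortex and made up 76.9% ± 2.41 of the summed antagonist TPM in diencephalon and 88.9% ± 2.21 in cortex. The other 10 antagonists together came to 55.8, 44.6 and 41.5 TPM in diencephalon and 124, 82.5 and 89.5 TPM in cortex, so the regions did not overlap without Dkk3 either. Within that remainder Sfrp1 and Sfrp5 changed places. Sfrp1 stood at 11.4 ± 5.85 TPM and Sfrp5 at 23.4 ± 2.88 TPM in diencephalon, while in cortex Sfrp1 stood at 79.5 ± 9.83 TPM and Sfrp5 at 2.91 ± 2.57 TPM. Sfrp5 was above Sfrp1 in every diencephalic library and below it in every cortical one. Among antagonists below the filter, Notum had no count in diencephalon and 6, 1 and 2 in cortex, at least 3.09-fold lower in diencephalon when 3 counts over its libraries are taken as the floor, and Dkkl1 had its 5 counts in 1 cortical library. With no count filter, where 10.6% of all genes were called lower, Notum passed as lower (edgeR adjusted p = 0.0392). Sfrp4 had 4, 5 and 13 counts in diencephalon and 8, 2 and 9 in cortex, and Sfrp2 had 8, 2 and 0 in diencephalon and 9, 0 and 2 in cortex. Dkk1 and Dkk4 had no count in any library, and Dkk2 and Wif1 had at most 2 counts in either region.

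In the R-spondin axis, Rspo1 and Rspo2 were lower and Lgr4 and Lgr6 higher in diencephalon. Of 9 genes 6 were tested, with 2 higher and 2 lower where 14.9% and 14.8% of all genes were, counts too small to set apart from that background. Rspo2 had 0.468, 1.58 and 1.05 CPM in the diencephalic libraries and 9.16, 6.39 and 9.32 CPM in the cortical ones (log2 difference -2.96 ± 0.55, edgeR adjusted p = 0.000270), on 6 counts in diencephalon and 48 in cortex. It passed the count filter through the cortical libraries alone, so it could hardly have passed without differing. Rspo1 had 8.42, 5.80 and 6.27 CPM in diencephalon and 13.5, 14.4 and 14.9 CPM in cortex (2.06-fold lower, edgeR adjusted p = 0.0194). Its libraries did not overlap, yet the call was lost on leaving out diencephalon replicate 2 or 3 (0.0739 and 0.0681) or cortical grey matter replicate 2 (0.0516) and with DESeq2 (0.0520), and its adjusted p ranged from 0.0184 to 0.0739. Rspo3 had 12.2, 4.75 and 5.75 CPM in diencephalon and 6.11, 8.52 and 12.4 CPM in cortex and did not pass (edgeR adjusted p = 0.751), and Rspo4 had 3 counts in diencephalon and 0 in cortex. The 4 R-spondins summed to 39.3, 24.4 and 24.7 TPM in diencephalon and 44.3, 45.1 and 56.1 TPM in cortex. Meningeal and fibroblast, cortical excitatory neuron, astrocyte, mural, endothelial and oligodendrocyte progenitor marker sums were lower in diencephalon in the same libraries. The part of these cells was not tested.

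Lgr4, the most abundant R-spondin receptor gene in both regions, had 177, 188 and 146 CPM in diencephalon and 134, 129.9 and 99.4 CPM in cortex (1.40-fold higher, edgeR adjusted p = 0.0136). It did not pass without diencephalon replicate 2 (0.0867, range over alternatives 0.00527 to 0.0867). Lgr6 had 29.5, 19.0 and 25.6 CPM in diencephalon and 3.93, 12.8 and 16.1 CPM in cortex (2.35-fold higher, edgeR adjusted p = 0.0128), with the lowest value in cortical grey matter replicate 1. The Lgr6 call was lost without that library (log2 difference 0.77, edgeR adjusted p = 0.0688), without diencephalon replicate 1 or 3 (0.0625 and 0.0551) and with log2(TPM + 0.1) (limma adjusted p = 0.0502), and its adjusted p ranged from 0.00036 to 0.0688. Lgr5, a stem cell marker in gut and skin and named here after its values were seen, was below the filter. It had 10, 10 and 13 counts in diencephalon and 4, 3 and 1 in cortex, with no overlap, and passed as higher with no count filter (edgeR adjusted p = 0.0172). The 3 receptor genes summed to 164, 166 and 143 TPM in diencephalon and 93.2, 95.0 and 80.5 TPM in cortex. Part of that gap lies in the scale, on which all genes had a median 0.22 higher in diencephalon (log2). Znrf3, the ubiquitin ligase that R-spondins restrain, had 275, 317 and 289 CPM in diencephalon and 254, 227 and 258 CPM in cortex, which did not overlap and did not pass (log2 difference 0.25 ± 0.12, edgeR adjusted p = 0.126). It passed with TPM values (0.0347, 0.0359 and 0.0423 by limma), where 11.9% to 14.8% of all genes were called higher and 5.54% to 6.7% lower. Rnf43, its partner, had 3, 2 and 5 counts in diencephalon and 11, 3 and 3 in cortex.

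Inside the cell, Axin1 was higher and Apc lower in diencephalon. Of 10 cytoplasmic genes 9 were tested and the other 7 did not pass, so the class was no more often called than all genes (29.6%). Axin1, the scaffold of the destruction complex, had 30.4, 33.2 and 30.8 CPM in diencephalon and 19.2, 14.9 and 19.3 CPM in cortex (1.77-fold higher, edgeR adjusted p = 0.00812) and passed under every alternative (range 0.00648 to 0.0499). Apc, a second scaffold of that complex which also binds microtubules, had 1315, 1443 and 1535 CPM in diencephalon and 1726, 1942 and 2292 CPM in cortex (1.39-fold lower, edgeR adjusted p = 0.0140). Leaving out diencephalon replicate 1 or 2 ended the Apc call (0.0678 and 0.0532). So did TPM values, with a log2 difference of -0.26 or -0.27 (0.208, 0.209 and 0.230 by limma). On the TPM scales all genes had a median 0.21 to 0.23 higher in diencephalon (log2), and 5.54% to 6.7% were called lower. Over all alternatives the adjusted p of Apc ran from 0.00145 to 0.230. Gsk3b, the kinase of the complex, had 879, 859 and 899 CPM in diencephalon and 805, 795 and 882 CPM in cortex (95% interval of the ratio 0.890 to 1.27, edgeR adjusted p = 0.637). Ctnnb1, which encodes β-catenin, had 189.9, 162 and 152 CPM in diencephalon and 176, 155 and 146 CPM in cortex (interval 0.871 to 1.28, edgeR adjusted p = 0.705). Ctnnb1 shares 759 exon bases with Ulk4 on the opposite strand in the GRCm38 annotation, so reads from those bases cannot be told apart.

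Dvl3 was the leading Dishevelled, the adaptor that links Frizzled to the destruction complex. It stood at 152 ± 25.4 TPM in diencephalon and 119 ± 15.6 TPM in cortex, above Dvl2 (20.9 ± 5.63 TPM in diencephalon, 11.7 ± 2.65 TPM in cortex) and Dvl1 (6.94 ± 1.31 TPM in diencephalon, 7.2 ± 4.45 TPM in cortex), and none of the 3 passed. Dvl3 had 100.1, 111 and 135 CPM in diencephalon and 116, 108 and 89.4 CPM in cortex (edgeR adjusted p = 0.524). Dvl2 shares exon bases with Acadvl on the opposite strand, and Axin2, Dvl1, Fzd6, Notum, Rspo3, Sfrp2, Wnt5a, Wnt7b and Wnt11 likewise overlap a gene on the other strand. The feedback genes, named after their values were seen, did not pass. Axin2, a widely used reporter of β-catenin signalling, had 53.8, 39.5 and 37.6 CPM in diencephalon and 52.4, 46.9 and 27.9 CPM in cortex, with overlapping libraries (log2 difference 0.029 ± 0.22, edgeR adjusted p = 0.939, 95% interval of the ratio 0.742 to 1.40). Nkd1, an inhibitor that binds Dishevelled, had 25.7, 22.7 and 23.0 CPM in diencephalon and 18.8, 12.2 and 14.9 CPM in cortex, which did not overlap and did not pass (log2 difference 0.62 ± 0.25, edgeR adjusted p = 0.0667). It passed with TPM values, at a log2 difference of 0.84 or 0.89 (0.0398, 0.0408 and 0.0474 by limma). On the TPM scales all genes had a median 0.21 to 0.23 higher in diencephalon (log2). There 11.9% to 14.8% of all genes were called higher and 5.54% to 6.7% lower. Nkd2, below the filter, had 6, 12 and 11 counts in diencephalon and 7, 4 and 2 in cortex.

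Other genes of the pathway were listed by role, with earlier results of these data known. Of 70 listed symbols 66 were in the files and 51 were tested, with 9 higher and 13 lower, where 14.9% and 14.8% of all genes were. Their median log2 difference was 0.083, against 0.01 over all genes, and the single lists below are too short for their counts to be read against that background. Planar polarity genes, which steer tissue orientation through Frizzled without β-catenin, had 4 of 11 tested higher and 4 lower (29.6% of all genes in either direction). Vangl1, a core polarity membrane protein, had 86.1, 109 and 83.1 CPM in diencephalon and 11.3, 11.7 and 11.8 CPM in cortex (7.94-fold higher, edgeR adjusted p = 4.58e-10), with the regions lying far apart. Celsr3, a polarity cadherin, was 2.11-fold higher, Prickle2, a polarity adaptor, 1.88-fold lower and Celsr1 2.71-fold lower (edgeR adjusted p = 1.59e-06, 1.11e-05 and 0.000271). The call of Celsr1 was lost on the TPM scale, where its limma adjusted p reached 0.0847.

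Among co-receptors and secretion genes 3 of 8 tested were lower (14.8% of all genes) and the other 5 did not pass, the 3 being the listed glypicans, heparan sulphate proteoglycans at the cell surface. Gpc6 was 1.91-fold, Gpc3 3.74-fold and Gpc4 2.34-fold lower (edgeR adjusted p = 1.78e-05, 0.00717 and 0.0390). Gpc3 passed the count filter through the cortical libraries alone, so it could hardly have passed without differing. Gpc3 did not pass without diencephalon replicate 1 (0.0515), and Gpc4 was lost under 8 alternatives, with adjusted p up to 0.209. Of 23 tested intracellular regulators 4 were higher and 2 lower, near or below the 14.9% and 14.8% over all genes. Dact3, an antagonist that binds Dishevelled, had 23.9, 30.1 and 26.1 CPM in diencephalon and 101, 126 and 122 CPM in cortex (4.34-fold lower, edgeR adjusted p = 5.35e-09). Gsk3a, the paralogue of Gsk3b, was 1.68-fold lower, while Cxxc4, an inhibitor acting on Dishevelled, was 2.55-fold and Amer1, a partner of APC, 1.695-fold higher (edgeR adjusted p = 0.000550, 8.77e-05 and 0.000193). The antagonist list had 1 of 3 tested lower, Igfbp4 (1.38 ± 0.830 CPM in diencephalon and 8.53 ± 0.697 CPM in cortex, edgeR adjusted p = 0.000591). Igfbp4 passed the count filter through the cortical libraries alone, so it could hardly have passed without differing. Of 6 tested target genes 1 was higher, Lef1, at 41.6 ± 2.17 CPM in diencephalon and 25.6 ± 0.543 CPM in cortex (edgeR adjusted p = 0.00919), and 3 were lower, Tnfrsf19, Ccnd1 and Cd44, by 2.28-fold, 1.94-fold and 2.08-fold (edgeR adjusted p = 5.28e-05, 0.000642 and 0.0102). Cd44 was lost under 5 alternatives, the TPM scales, diencephalon replicate 3 left out and cortical grey matter replicate 2 left out, with adjusted p up to 0.151.

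**Figure D5:**
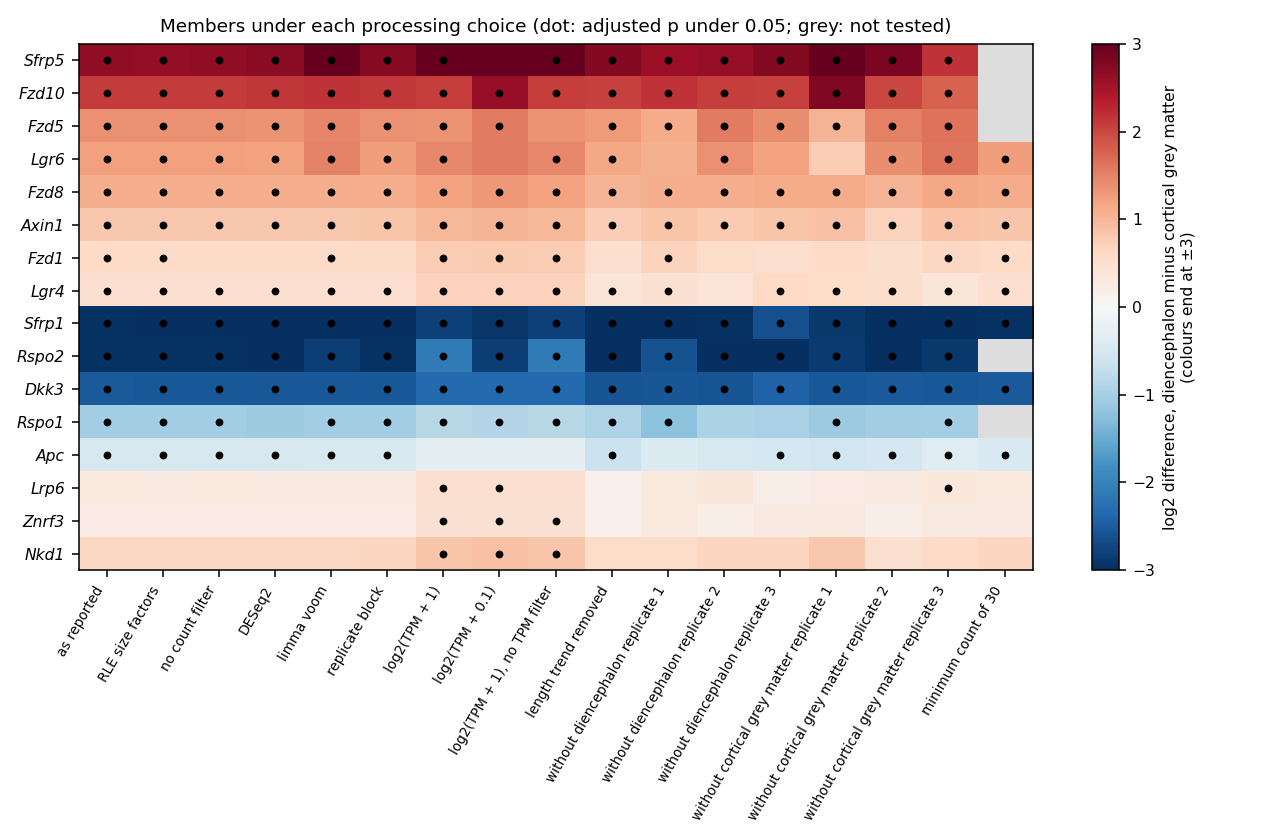
Log2 difference (colour, diencephalon minus cortical grey matter) of the 13 called members and of Lrp6, Znrf3 and Nkd1 as reported and under each of 16 alternatives; a dot marks adjusted p under 0.05 and grey a gene not tested. Rows for Fzd8, Axin1, Sfrp1 and Dkk3 carry a dot in every column, and no row changes colour from one side to the other.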

How the data were processed

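The submitters' processing notes name RSEM and mm9, and which aligner, versions and strand setting were used was not given in the sources used here. Per the file headers, each deposited file lists expected counts, TPM (computed by the authors) and length for each gene. Of the genes' expected counts 3.64% to 3.99% per library were not whole, and all were rounded to whole numbers. The filter of edgeR (filterByExpr, minimum count of 10, about 5.22 CPM) kept 10568 of 23955 genes. The fit used TMM factors and edgeR's robust quasi-likelihood model on region alone, with Benjamini-Hochberg adjusted p-values and a threshold of 0.05 (edgeR 4.0.16, limma 3.58.1, DESeq2 1.42.0, R 4.3.3, Python 3.11.15). The code was first tested on simulated counts. Alternatives changed size factors, count filter, test, replicate block, TPM pseudocount and filter, length correction and each library in turn.

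Members and lists were chosen with earlier results of these data known. Values are given for called members and for up to 3 abundant uncalled members of each class, and other genes were named after their values were seen. No label pairs libraries across regions. Gene neighbours and overlaps come from GENCODE M21 and promoters from RefSeq, both on GRCm38.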

Additional observations from a re-analysis of the deposited data

How the results depend on the processing

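The 8 higher and 5 lower members became 5 and 3 at a minimum count of 30, where 19 members were tested, 5 called ones were not, and 18.3% of all genes were higher and 18% lower. With log2(TPM + 1) 48 members were tested and 13 were higher, where 14.8% of all genes were higher. That scale moves all genes up by a median of 0.22. Of the calls there 5 were new (Lrp6, Nkd1, Wnt3, Wnt9b and Znrf3). Leaving out a library gave 6 to 11 higher and 3 to 5 lower members, while 10.4% to 15.2% of all genes were higher and 10.8% to 15.3% lower, with 3 lower without diencephalon replicate 2 and 11 higher without cortical grey matter replicate 3. The 13 lower genes of the other pathway lists became 8 on each of the 3 TPM scales, where lower calls over all genes also dropped, to 6.7%, 6.35% and 5.54%. Leaving out a library gave 10 to 15 of these lower genes and 8 to 11 higher ones (9 as reported), and the TPM scales gave 11 or 12 higher ones. With the replicate number as a block 7 members were higher and 5 lower, the lost call being Fzd1. Same-numbered libraries did not deviate together (correlations 0.0586, -0.0988 and 0.0037), and not every library correlated best with its own number. Of the 13 calls, RLE size factors and limma voom kept 13, the length-corrected fit, the fit with no count filter and log2(TPM + 1) kept 12, and log2(TPM + 0.1) kept 10.

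Only members that had not passed changed sign, and none of them passed there. Porcn, reported at 0.015, took -0.091 to 0.13 (a library left out). Fzd2, reported at -0.23, took 0.058 (log2(TPM + 1), filtered or not) and 0.066 (log2(TPM + 0.1)) and -0.54 to 0.30 (a library left out). Fzd3, reported at 0.048, took -0.13 (length trend removed) and -0.057 to 0.22 (a library left out). Fzd4, reported at -0.23, took -0.60 to 0.014 (a library left out). Lrp5, reported at -0.018, took 0.018 (limma voom) and 0.16 (log2(TPM + 1), filtered or not) and 0.18 (log2(TPM + 0.1)) and -0.23 to 0.14 (a library left out). Rspo3, reported at -0.20, took -0.75 to 0.074 (a library left out). Axin2, reported at 0.029, took -0.057 (length trend removed) and -0.19 to 0.21 (a library left out). Ctnnb1, reported at 0.076, took -0.024 to 0.15 (a library left out). Dvl1, reported at -0.27, took 0.11 (log2(TPM + 1), filtered or not) and 0.16 (log2(TPM + 0.1)) and -0.66 to 0.28 (a library left out). Gsk3b, reported at 0.088, took -0.022 (length trend removed). Where no cause is named, the cause was not tested. At this depth 26 of 62 members could not be tested, and 13 of these had no more than 3 counts in either region.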
